A study of Homo sapiens with 2 samples.

Results

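The human beta-globin locus on chromosome 11 holds the genes HBB, HBD, HBBP1, BGLT3, HBG1, HBG2 and HBE1 and, beyond HBE1, the locus control region. These 7 genes of 59098 in the gene table were taken by name, together with every called transcription start between positions 5200000 and 5320000 of chromosome 11 (hg38), which gave 13 of 26395 calls. The calls came from PRO-cap, which labels RNA in isolated nuclei with biotin nucleotides and reads the capped 5' ends of the newly made RNA. The cells were HUDEP-2, a human line of immortalised erythroid progenitors, used as wild type, untreated, in 1 group of 2 biological replicates. The call lists name no replicate and carry a score of 0 at every call, so the depth is unknown and neither a level nor a spread between replicates can be given. Each call is a position that passed a threshold, which is not given in the sources used here.

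Beta-like globin genes are arranged along the chromosome in the order in which they are used during development. HBE1 encodes the embryonic chain, HBG1 and HBG2 the fetal gamma chains, HBD the minor adult delta chain and HBB the major adult beta chain. HBBP1 is a pseudogene that makes no globin, and BGLT3 is a noncoding RNA gene between it and the gamma genes. The locus control region is a group of sites with open chromatin in red cells, HS1 to HS5, that contacts whichever globin gene is active, and it is the main distal enhancer of the cluster. A further site, 3'HS1, lies beyond HBB and, like HS5, is bound by the insulator protein CTCF. HUDEP-2 cells are used as a model of adult globin expression. Globin genes are transcribed from the reverse strand, so that HBB has the lowest coordinates and its 5' end is the upper end of the gene.

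The label of the cells was checked against marker genes. All 7 erythroid markers reported here had a called start (ALAS2, AHSP, EPOR, GATA1, KLF1, SLC4A1 and TFRC). None of 3 lymphoid markers (CD3E, CD79A, PAX5) and none of 4 myeloid markers (CD14, LYZ, MPO, SPI1) had one, although SPI1 held 1 call. Of 3 megakaryocyte markers, ITGA2B had a called start and GP9 and PF4 did not. For comparison, 43.9% of all protein-coding genes had a called start, and each of these marker lists is short.

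The sequence shown here is the HBD promoter, since it lets the position of a called start be read against promoter elements. It was the 1 member with an entry in the RefSeq promoter table (GRCh38.p14), and HBB, HBBP1, BGLT3, HBG1, HBG2 and HBE1 are named only. The 250 bases before the annotated HBD start, chr11:5234484-5234733 on the reverse strand, are written 5' to 3', with capitals for 3 motifs. The first is CCAAT, a common promoter element. The last is ATAAAA, which resembles a TATA box. Between them, the capitals TTATCT, when read from the other strand, spell AGATAA, a form bound by GATA factors.

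HBD promoter: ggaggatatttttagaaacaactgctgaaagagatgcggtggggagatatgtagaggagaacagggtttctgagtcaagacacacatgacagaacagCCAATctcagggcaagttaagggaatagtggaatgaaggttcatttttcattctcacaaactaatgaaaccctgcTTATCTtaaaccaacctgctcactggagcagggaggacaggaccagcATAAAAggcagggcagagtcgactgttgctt

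**Figure D1:**
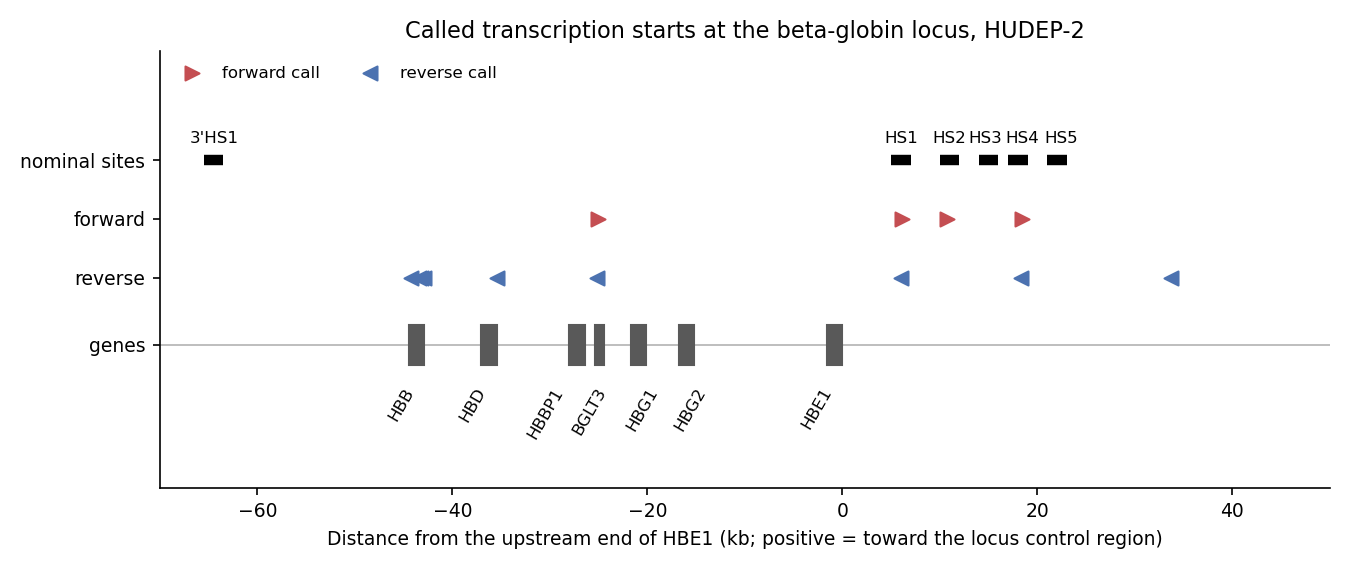
Map of the called starts (triangles, forward and reverse strand) along the beta-globin locus, with genes as grey boxes and black bars for the nominal hypersensitive sites with 1 kb on each side. The horizontal axis is the distance in kb from the upstream end of HBE1. Calls lie at HBB, HBD and BGLT3 and at HS1, HS2 and HS4, and none lies between BGLT3 and HS1.

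Of the 13 calls, 7 lay in the 44.5 kb from HBB to HBE1 and 6 upstream of HBE1. The gene part was one-sided, with 6 reverse calls and 1 forward call, whereas the upstream part held 3 of each. By gene, a called start was found at HBB, HBD and BGLT3, which is 3 of 7. BGLT3 counts only through its forward call, and 2 of 7 remain if all members are read as reverse-strand genes. A called start is a call within 500 bp of an annotated start on the gene's strand, or, where the promoter table gives no strand, a call at an outer end that points into the gene. The share over all protein-coding genes was 43.9% (95% Wilson interval 43.2 to 44.6, 8764 of 19974), over long noncoding RNA genes 9.23% and over pseudogenes 1.60%. For genes with a stored strand, such as HBD, the share was 47.1%, and for those without one, such as the other coding members, it was 31.8%. The 5 coding members, with 2 called, stand near this background. Counting any call inside or within 500 bp also gave 2 of 5, against 52.2% of coding genes. Among coding genes of 1 to 2 kb, the length class of all 5 coding members, a lower share, 17.2% (125 of 726), had a called start. With only 5 coding members, the counts alone do not set the cluster apart.

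HBB, the major adult gene (5225464 to 5227071), carried 4 reverse calls and no forward call. The first, at 5227071, fell on the annotated upper end of the gene. The others lay 297, 596 and 1406 bp further along, at 5226774, 5226475 and 5225665, the last of them 201 bp before the lower end. Neighbouring calls were therefore 297, 299 and 810 bp apart, and the 2 shorter steps are not far above 251 bp, the smallest distance between calls of 1 strand anywhere in the lists. Exons and introns were not used here, so these internal calls were not placed against them.

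Such a series of calls on 1 strand was rare among genes of the size of HBB. Of 726 protein-coding genes of 1 to 2 kb, 125 had a called start (17.2%, 14.6 to 20.1). Inside the gene and on the strand of that start, 42 of the 125 held no call, because the start lay just outside, 75 held 1, 6 held 2, 1 held 3 and only HBB held 4. Among all 8764 called coding starts, whatever the gene length, 14 (0.160%, 0.0952 to 0.268) were followed by at least 3 more same-strand calls within the 1406 bp that separate the outermost HBB calls. HBB was 1 of these 14 by construction, since both the distance and the number of followers were taken from its own calls. The other 13, named after their values were seen, were ARID1B, CUL4A, DRC8, ELF1, KCNQ5, NSMAF, RBPJ, SOX21, ST3GAL1, STAG1, TP53I3, TRIM55 and TYMS. No other globin gene was among them. Over all 26332 calls on chromosomes 1 to 22 and X, 145 (0.551%) had 3 or more followers at that distance and 24.1% had at least 1. Whether the internal HBB calls are starts of separate RNAs was not tested.

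**Figure D2:**
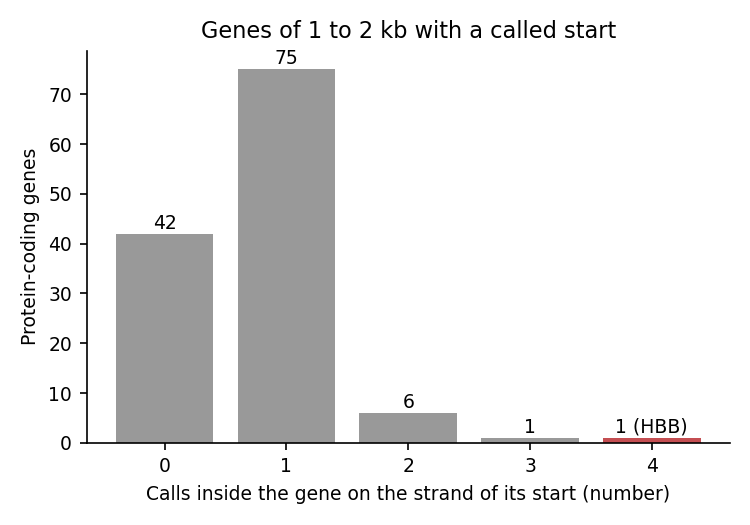
Number of calls inside the gene on the strand of its called start (horizontal axis) for the 125 protein-coding genes of 1 to 2 kb with a called start, with the number of genes on the vertical axis. HBB, in red, is the gene with 4 calls, and 75 genes hold 1.

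HBD, the minor adult gene (5232838 to 5234483), had a single reverse call at 5234554, which lies 71 bp before its annotated start. No call fell on the start or within the gene. In the promoter printed above, the call falls on an A, shown here as the capital with 15 bases on either side.

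HBD call: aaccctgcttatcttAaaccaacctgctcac

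The letters TTATCT begin 7 bp before this call, and ATAAAA begins 40 bp after it. The TATA-like letters occupy bases -31 to -26 from the annotated start, which is where a TATA box stands in relation to a start, and no TATAAA or ATAAAA lay 20 to 40 bp before the called position itself. The letters CCAAT begin 82 bp before the call. All motifs were searched on both strands. The letters TATAAA are not in these 250 bases, nor are CACCC, the core that KLF1 binds, and TGACCA, the letters that BCL11A binds. Of 21983 coding promoter windows of the same length, 11.7% hold ATAAAA and 9.03% hold TATAAA on either strand, and these motifs can overlap. CCAAT was in 32.7%, CACCC in 58.4%, AGATAA in 7.10% and TGACCA in 7.96% of them. A match of letters is a description, and binding was not measured.

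A call this far before the annotated start is uncommon. Of 6861 calls within coding promoter windows, which run from 250 bases before to 50 bases after a start, 3940 (57.4%, 56.3 to 58.6) lay within 10 bp of the start and 349 (5.09%, 4.59 to 5.63) at least 50 bp before it. TATAAA or ATAAAA starting 20 to 40 bp before the annotated start, on the gene's strand, was found in 894 of the 21983 windows (4.07%), HBD included. Of these, 143 (16%, 13.7 to 18.5) held a call on the gene's strand, and in 129 of the 143 (90.2%, 84.2 to 94.1) the nearest call was within 10 bp of the start. Windows without such letters held a call more often, in 33.3% (32.7 to 34.0), but the nearest call was within 10 bp of the start in 54.6% (53.4 to 55.7) of those 7033. HBD belonged to the 7 of 143 whose nearest call lay at least 50 bp before the start (4.90%, 2.39 to 9.76), so that it departs from most called promoters with these letters, whereas the HBB call lay on the annotated start.

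**Figure D3:**
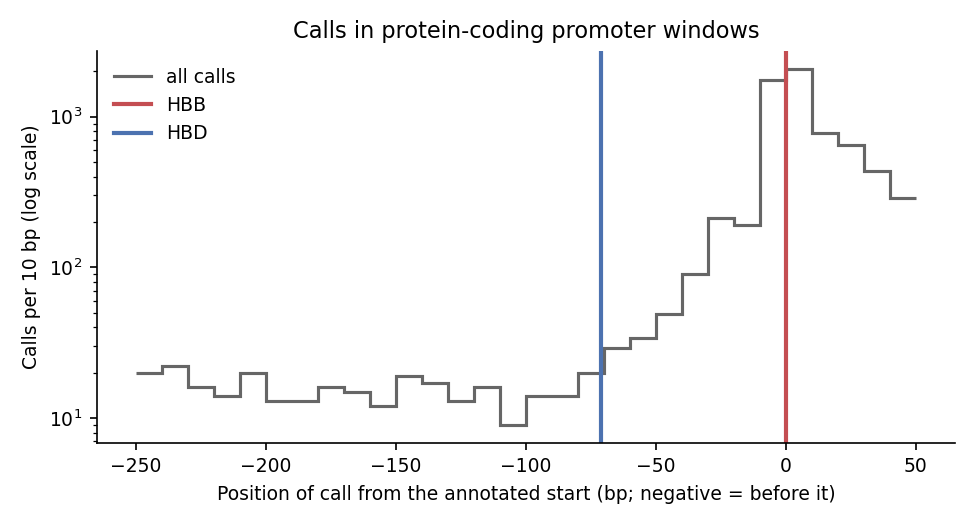
Position of calls in coding promoter windows from the annotated start in bp (horizontal axis, negative before the start), with the number of calls per 10 bp on a log scale. The HBB call, read against the upper end of the gene, is at 0 in the peak of the distribution, and the HBD call is at -71 in its thin upstream part.

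The bases at the calls show how exactly a called position can be read. RNA polymerase II often starts on an A that follows a C. Over the 6861 calls, CA stood at the base before the call and the call in 1.31%, but at the call and the base after it in 36.8% (35.7 to 38.0). This held on the forward strand (37.0%) and on the reverse strand (36.6%). Likewise, 20.8% of these calls lay 1 base before the annotated start and 12.2% on it. The deposited positions thus tend to lie 1 base before the CA start letter in the direction of transcription, and positions here are given as deposited. Reading the base after the call was chosen after the data were seen. At HBD the call and the base after it are AA, as in 7.10% of the calls, and the base before the call and the call are TA, as in 13.1%, so neither reading puts the HBD call on CA. The same reading was not made for HBB, which has no entry in the promoter table. A wider form has C or T before the call and A or G at it. This form stood at 2110 of the 6861 calls (30.8%), and the HBD bases TA have it.

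Neither HBB nor HBD had a divergent partner, that is, an opposite-strand call up to 300 bp upstream that points the other way. Of all called coding starts, 50.1% (49.0 to 51.1, 4387 of 8764) had such a partner, so that lacking it is common. The call nearest to the HBB start on its upstream side was that of HBD, 7483 bp away, and the next one beyond HBD lay 10254 bp further, in BGLT3.

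BGLT3 (5244554 to 5245546) held the only divergent pair of the gene part of the locus. Its reverse call was at 5244808 and its forward call at 5244866, 58 bp apart and 254 and 312 bp from the lower end of the gene. It was the only noncoding member with calls, against 14.9% of 18177 long noncoding RNA genes with any call inside or within 500 bp. BGLT3 counts as having a called start through the forward call, which points into the gene from its lower end. If all members are read as reverse-strand genes, like the globin genes, it does not count and 2 of 7 remain, HBB and HBD. In that reading the reverse call lies 738 bp past the upper end, inside the gene. HBBP1 (5241954 to 5243592), the neighbouring pseudogene, held no call, and the nearest was the reverse call of BGLT3, 1216 bp above it. The calls at BGLT3 were paired, unlike those at the adult genes.

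The fetal and embryonic genes were without calls. HBG1 (5248269 to 5249857) was 3.4 kb from the nearest call, HBG2 (5253188 to 5254781) 8.32 kb and HBE1 (5268345 to 5269945) 6.0 kb. The interval from the forward call of BGLT3 to the first call of the locus control region covered all of them and ran for 31084 bp without a call on either strand. Intervals of this length are not unusual, since 68.7% of the 26309 intervals between neighbouring calls in the genome are shorter and the median is 997 bp. Without a read count, no upper limit on transcription of these genes can be given.

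HBG1 and HBG2 are near-identical copies, and near-identical promoters seldom had calls in these lists. Of 15812 coding genes with a stored promoter, 485 shared an exact run of at least 75 bases with the promoter window of a gene elsewhere in the genome, and 28 of them (5.77%, 4.02 to 8.22) had a called start. Among the other 15327 the share was 48.4% (47.6 to 49.2). Genes with and without a copy were not matched in other respects, so the part of shared sequence in this difference was not tested. With a shared run of 50 bases in place of 75, the share among genes with a copy was 9.42%. HBG1 and HBG2 are not in the promoter table, so their own shared run was not measured, and the part of sequence copies in their lack of calls was not tested. HBE1 is not in the promoter table either, so its promoter was not compared.

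Upstream of HBE1, calls lay within 1 kb of the nominal positions of 3 of the 5 hypersensitive sites of the locus control region. The sites were set at rounded textbook distances of 6, 11, 15, 18 and 22 kb upstream of the HBE1 start for HS1 to HS5, and a call within 1 kb was counted. HS1 held a divergent pair, reverse at 5275950 and forward at 5276048, 6005 and 6103 bp from HBE1. HS2, the site with the strongest enhancer activity in transfer experiments, held 1 forward call, at 5280705, 10760 bp from HBE1. HS4 held a second divergent pair, reverse at 5288254 and forward at 5288334, 18309 and 18389 bp from HBE1. HS3 and HS5 held none, and the nearest calls to their nominal positions were 3.31 and 3.61 kb away, both belonging to the HS4 pair. The same 3 sites were found with limits of 0.5 kb and 2 kb. How often windows of this width elsewhere hold a call was not counted, so the number has no background.

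At the sites with calls, the distance to the nominal position was 0.005 kb for the nearer HS1 call, 0.24 kb for HS2 and 0.309 kb for the nearer HS4 call. These distances depend on rounded positions and are not a measure of precision. The site 3'HS1, set 20 kb beyond the lower end of HBB, held no call, and the nearest was the last internal call of HBB, 20.2 kb away. Both sites bound by CTCF, HS5 and 3'HS1, were thus among the sites without a call, as was HS3. Binding was not measured here, and whether it bears on which sites held a call was not tested.

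The calls of the locus control region ran on both strands. The reverse calls at HS1 and HS4 point toward the globin genes, and the forward calls at HS1, HS2 and HS4 point away from them. HS2 had no reverse call within 300 bp, and the nearest call of any kind lay 4.66 kb away, at HS1. Of 1579 calls in the genome that lie outside genes and over 1000 bp from every gene end, 436 (27.6%, 25.5 to 29.9) were in a divergent pair, so single calls such as that of HS2 are the more frequent form.

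Both pairs of the locus control region were narrower than most. The calls lay 98 bp apart at HS1 and 80 bp apart at HS4. The 213 divergent pairs outside genes had a median of 131 bp (quartiles 100 and 193), and 23.9% of them were narrower than the pair of HS1 and 16.4% narrower than that of HS4. The 58 bp of BGLT3 were narrower still, with 6.74% of all 5784 divergent pairs below it. The 3 spacings lie below the first quartile of the pairs outside genes but within the range of the other pairs. The HS1 and HS4 pairs are 12.2 kb apart, and 40 of the 213 pairs outside genes (18.8%, 14.1 to 24.6) had another such pair at most that far away. The HS1 and HS4 pairs are among these 40 by construction, since the limit was their own distance.

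**Figure D4:**
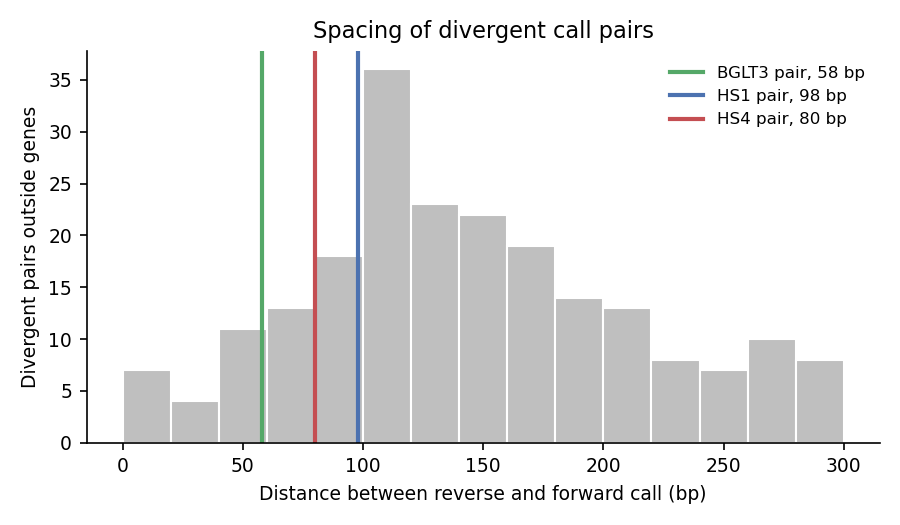
Distance in bp between the reverse and the forward call of the 213 divergent pairs outside genes (grey bars, number of pairs), with lines for the pairs at BGLT3 (58 bp), HS4 (80 bp) and HS1 (98 bp). All of the 3 lines lie below the median of 131 bp.

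The number of calls on the upstream side of HBE1 was high beside that of coding genes with a stored strand. Within 50 kb upstream of HBE1 there were 6 calls outside genes and over 1000 bp from any gene end. For comparison, 823 of 15812 coding genes with a stored strand (5.20%, 4.87 to 5.56) had at least 1 such call within 50 kb upstream, and 12 (0.0759%, 0.0434 to 0.133) had 6 or more. Those 12 had 6 to 9 such calls and were AAAS, CBFA2T3, CDT1, FAF1, GLDC, IGF2BP3, KDM4C, OR10G7, PIEZO1, PTMA, SLC40A1 and TCF3, named after their values were seen. Neighbouring genes can share the same calls, and the members of the cluster do. HBG2 also had 6 within 50 kb upstream, HBG1 had 5 and HBD had 3, those at HS1 and HS2, so that the count is not particular to HBE1. The 15812 genes were not matched for how much of the 50 kb lies outside genes. HBE1 itself, without a stored strand, is not among them.

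The sixth upstream call stood outside the named sites. It was a reverse call at 5303692, 33.7 kb from HBE1 and 11.7 kb beyond the nominal HS5, without a partner and 15.4 kb from the nearest other call. The nearest gene end was that of OR51B4, an olfactory receptor gene, 1746 bp below it, and the call points toward this gene. OR51B4 itself held none.

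On both sides of the locus an interval without calls followed. The next call below HBB, at 5151849, was 73.8 kb away inside OR52A1, and the next one above the locus, at 5596895 in TRIM5, was 293 kb away. Of all intervals between neighbouring calls, 79.0% were shorter than the first and 92.2% shorter than the second. The genes nearest to the region below it, OR52Z1P, OR51A1P and OR52A1, and above it, OR51B2, OR51B8P and OR51B5, held no call apart from the 1 in OR52A1. Of the 93 genes of the OR51 and OR52 olfactory receptor families on chromosome 11, which surround the cluster, none had a called start and OR52A1 alone held a call inside or within 500 bp. The 93 include coding genes and pseudogenes, for which the shares with a called start over all genes were 43.9% and 1.60%.

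Factors that bind or loop the locus control region and regulators of the globin switch were mostly called. The genes of CTCF and cohesin were not, with 4 of 8 beside 43.9% of coding genes. Among 15 factors known to bind or loop the locus control region, 13 had a called start, against 43.9% of coding genes, including the haem-responsive repressor BACH1, the erythroid master regulator GATA1, the beta-globin activator KLF1 and LDB1, which bridges enhancer and promoter. SSBP4, a partner of LDB1, and YY1 had none, although they held 8 and 1 calls elsewhere. Among 8 genes of CTCF and cohesin, 4 had a called start, CTCF, RAD21, SMC1A and STAG1, and NIPBL, SMC3, STAG2 and WAPL did not, although each of them held 1 or 2 calls inside or nearby. Of 19 regulators of the switch from fetal to adult globin, 15 had a called start, beside the same 43.9%. They include BCL11A, the main repressor of the gamma genes, DNMT1, EHMT1 and IGF2BP1. EHMT2, HIC2, LIN28B, which maintains the fetal programme, and NR2F2 held no call at all. KLF1 is in the first and the third of these lists. At the alpha-globin cluster, which makes the partner chains of haemoglobin, HBM and HBQ1 had a called start and HBA1, HBA2 and HBZ held no call. That is 2 of 5, beside 43.9% of coding genes. Whether shared sequence bears on the lack of calls at HBA1 and HBA2 was not tested. Without a read count, no limit on their transcription can be given. These lists were chosen with earlier results of these data known and are described by their counts, without a test.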

How the data were processed

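PRO-cap was run on 2 replicates of wild-type HUDEP-2 cells. BWA 0.7.16a, Picard, SAMtools 1.17 and deepTools 3.5.4 are listed, with the build hg38, in the submitters' processing notes. The version and threshold of the caller, and any combining of replicates, were not given in the sources used here, and each bears on which positions were called. The authors deposited 1 list of 1-base calls per strand, with other values than measurements (positions) and a score of 0 for every call. No column was left unused for lack of a sample.

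Calls on chromosomes 1 to 22 and X were used (63 left out). Genes and promoters came from RefSeq tables of GRCh38.p14, the build of hg38, in which 15812 of 19974 coding genes had a stored promoter and strand. Python 3.11.15, pandas 2.3.3 and scipy 1.17.1 were used. Steps were tested on simulated data. Intervals are 95% Wilson intervals over genes or calls and cover counting error only. No tests between groups were made. Members and lists were chosen with earlier results of these data known. Genes were named by rule: all members, the 3 nearest genes on each side, all genes of a list side with 5 or fewer members and otherwise the first 4 by alphabet. Genes that met a count over the whole table were chosen after the values were seen and are named in full. HBG1 and HBG2 promoter identity was planned and not analysed here. Of the planned markers, 3 are not reported here and were left out without regard to their values.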

Additional observations from a re-analysis of the deposited data

How the results depend on the processing

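The counts of calls in the region (13, with 10 kb added or removed on each side), of divergent pairs (3, with partners within 150 or 500 bp) and of hypersensitive sites with a call (3, within 0.5 or 2 kb) kept their values. Beta-globin genes with a called start numbered 3 with windows of 500 and 1000 bp and with inward calls at either outer end, and 2 with a 200 bp window or with all members read as reverse-strand genes, a reading chosen after the data were seen. HBB held 3 calls more than 100 bp past its start, and 4 with 500 bp added on each side. The share of coding genes with a called start moved from 43.9% to 42.0% with a 200 bp window, 45.3% with a 1000 bp window and 41.1% with inward calls at either outer end. The share among genes with a near-identical promoter copy moved from 5.77% to 9.42% with a shared run of 50 bases, and was 4.10% with 100. No paired analysis was possible because the call lists name no replicate, and leaving out a replicate and the comparison of the HBG1 and HBG2 promoters were not run. Depth is unknown, so that transcription below the threshold cannot be seen.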
